A study of Oryctolagus cuniculus with 12 samples.

Results

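Of the 12 rabbits in the series, 11 entered the comparison described here, 7 with a history of aortic coarctation and 4 without. The history group pooled the 4 CoA rabbits with Corrected replicates 1, 2 and 4, and the other group held the 4 Control rabbits. Samples were assigned by their labels alone. One Corrected rabbit was left out, as in the study's own comparisons. It was replicate 3, the dimmest array, with 45.6% of its spots well above background, while the 7 history arrays had shares from 55.8% to 69.7%. The comparison asks which transcripts differed from Control whether the raised pressure was still present (CoA) or had been relieved (Corrected).

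Every animal was a male New Zealand white rabbit sampled at 32 weeks of age. In CoA rabbits, a silk suture around the proximal descending aorta held a 20 mmHg pressure gradient until harvest. In Corrected rabbits the gradient of 20 mmHg was set with Vicryl, a suture that degrades, so that by the study's estimate pressure had been back to normal for months at harvest although a modest narrowing stayed. Control rabbits took no part in the procedure and there was no sham group, so effects of surgery and of coarctation cannot be told apart. One ring of aorta per rabbit was taken upstream of the suture, below the left subclavian artery, and its total RNA was hybridized with a single dye to 1 Agilent rabbit array. Replicates are rabbits by the labels, and the number of arrays limits the precision of every value below.

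Coarctation is a narrowing of the aorta that raises blood pressure upstream. Smooth muscle cells of the aortic wall are known to answer sustained pressure with changes in contractile proteins, calcium handling, matrix and growth factor production, and part of the morbidity of patients is known to persist after repair. A ring of aorta also carries endothelium, sympathetic nerve endings, fat of the adventitia, and blood and immune cells. In a ring measured in bulk, fewer cells of a type and less RNA per cell cannot be told apart.

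Whether the coarctation was still in place or had been relieved, all 7 history arrays were above all 4 Control arrays for INMT, an amine methyltransferase, at 7.29-fold (log2 difference 2.87, SE 0.40). The same held for HGF, a growth factor (1.68, SE 0.34), and for NPY, a peptide of sympathetic nerves (2.20, SE 0.55). All 7 were below Control for SUCLA2, a citric acid cycle enzyme (-1.45, SE 0.36), and for SORL1, a sorting receptor (-1.34, SE 0.30). Members of the calcium handling list that met the 2-fold criterion were higher (3 of 20, beside 3.88% of all genes), and members of the white adipocyte list that met it were lower (2 of 6, beside 5.35%). None of these differences passed adjustment over all probes.

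The labelled tissue was checked by its defining markers. All 10 genes of the smooth muscle contraction list that had a named probe were detected, and ACTA2 (smooth muscle actin) had log2 signals of 16.26, 16.19, 14.92 and 14.98 on Control replicates 1 to 4 and 14.47 to 16.40 (median 15.98) on the 7 history arrays. The endothelial markers PECAM1, VWF and CDH5 had no named probe and were not analysed here. Spots well above background made up 69.7% to 77.7% of Control arrays, and every history array had a smaller share, CoA replicate 2 by the narrowest margin. The arrays fell on 4 slides, told apart by the scan identifier and scan date recorded with each array and not by a slide label. One of them held the 4 CoA arrays and no other, which means that a slide effect and CoA cannot be told apart. Corrected replicate 2 shared a slide with Control replicates 1, 2 and 4, and this slide gave the only comparison within a slide. Control replicate 3 was alone on its slide and was scanned on another day than all other arrays. Control replicates 3 and 4 were nearly alike (SD of their log2 difference 0.144, against 0.284 to 0.963 for the other pairs) and were kept as the separate rabbits of the labels. Whether they share RNA was not tested. If they do, there were 3 independent Control rabbits, the smallest exact permutation p would be 0.0167, and with both as 1 sample 1240 probes met the 2-fold criterion described next, against 1780.

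Signals below are log2 processed intensities after quantile normalization, and a difference is a difference of mean log2 signal with its standard error (SE). A probe entered the test where it was detected on at least 8 of 12 arrays, and it met the 2-fold criterion where its difference passed 1 on the log2 scale with an unadjusted limma p under 0.05. Of 27283 probes tested, 1780 (6.52%) met the criterion between the history group and Control, 666 (2.44%) higher and 1114 (4.08%) lower in the history group. No probe passed an adjusted p of 0.05 in limma (0 probes, the lowest Benjamini-Hochberg value being 0.114). At an unadjusted p under 0.05 there were 3863 probes (14.2%), where 1364 are expected by chance. This excess depended on how slide was handled. There were 5453 with slide as a random block but 554, fewer than expected by chance, with slide as a fixed factor. In the fixed-factor fit only the shared slide informs the difference. The part of slide in the excess was not tested. All 7 history arrays lay above all 4 Control arrays for 459 probes and below them for 296, together 2.77% of the probes. With arrays scaled to the 75th percentile instead, the counts were 990 higher and 905 lower, and the scaling moved the median difference over all probes from 0.05 to 0.18. CoA replicate 2 and Corrected replicate 4 stood apart, with the lowest limma array weights (0.145 and 0.264), and without both, an alternative chosen after the data were seen, 1458 probes met the criterion. With slide as a fixed factor 547 probes met it, and within the shared slide 960, where the lone Corrected array is assumed to vary like the Control arrays.

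Since both groups enter the pooled mean and both are set against the same Control arrays, their signs are in part fixed by the selection, and 0 of the 1780 probes had the opposite sign in either group. The pooled criterion was met on its own by 1448 of these probes in CoA and by 930 in Corrected. It was met in both by 704 and in neither by 106. Over all probes, 2404 (8.81%) met the criterion in CoA, 3.59% higher and 5.22% lower than Control. In Corrected 1471 (5.39%) met it, 2.41% higher and 2.98% lower, and an unadjusted p under 0.05 was reached by 14.2% of probes in CoA and by 8.35% in Corrected. These counts rest on 4 CoA and 3 Corrected arrays, so they do not rank the size of the 2 effects. With Corrected replicate 3 added the order was reversed, with 1740 probes past the criterion in CoA and 2851 in Corrected. Among the 1780, the difference exceeded 2-fold in both groups for 1202, the CoA difference was the larger for 1126 and the Corrected difference for 654. The median log2 difference of the 666 higher probes was 1.38 in CoA and 1.21 in Corrected, and that of the 1114 lower probes was -1.61 and -1.45.

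CoA and Corrected were then compared over these probes. An unadjusted p under 0.05 for CoA vs Corrected was found for 84 of the 1780 (4.72%), close to the 4.31% of all probes tested, and for 0 after adjustment in limma. Between CoA and Corrected 755 probes (2.77%) met the 2-fold criterion, 1.44% higher and 1.33% lower in CoA, and 1779 met it when Corrected replicate 2 was omitted. Without CoA replicate 2 and Corrected replicate 4, 1157 of the 1458 probes that met the pooled criterion also met it in CoA, 572 met it in Corrected and 442 in both. Of those 1458 probes, 1082 were among the 1780.

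**Figure D1:**
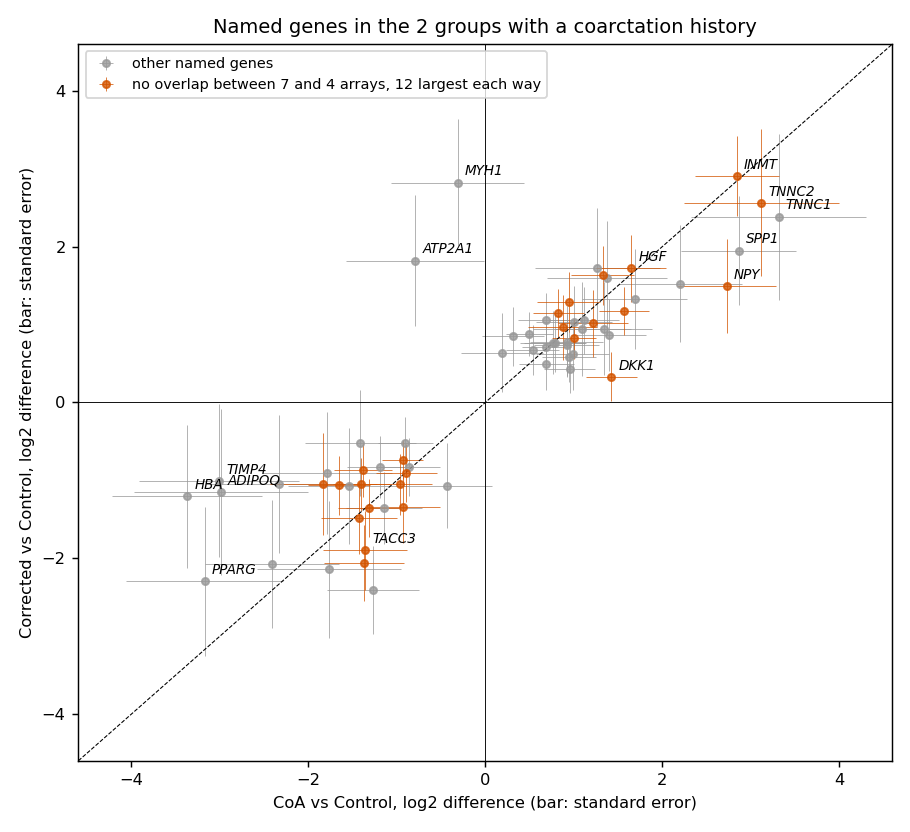
Log2 difference from Control in CoA (horizontal axis) against that in Corrected (vertical axis) for the named genes that passed the detection filter. UCP1 and CD247 did not pass it and are not drawn. Bars are 1 standard error and the dashed line marks equal differences. Orange points are the 24 genes whose 7 history arrays did not overlap the 4 Control arrays and which had the largest differences. Both axes share the Control arrays. INMT and HGF lie on the line, DKK1 below it, and MYH1 and ATP2A1 were high in Corrected alone.

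Gene symbols could be given to 3368 probes for 1264 genes, and 953 genes had a tested probe, the brightest of which stands for the gene. Of the 953, 88 (9.23%) met the 2-fold criterion, 37 (3.88%) higher and 51 (5.35%) lower in the history group, and the median difference over all 953 was 0.09. An unadjusted p under 0.05 was reached by 159 (16.7%), 93 (9.76%) higher and 66 (6.93%) lower. Without CoA replicate 2 and Corrected replicate 4, 25 were higher and 37 lower. The arrays of the 2 groups did not overlap for 33 genes (3.46%), 21 above and 12 below Control. The 12 largest differences each way among those with an unadjusted p under 0.05 are described first. The absence of overlap was part of how they were picked, so their exact two-sided permutation p was 0.00606 in every case, the smallest that 7 against 4 allow.

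INMT, the indolethylamine N-methyltransferase that methylates tryptamine and related amines, had the smallest adjusted p of all genes. Its log2 signal was 11.20, 13.34, 12.002 and 11.18 on Control replicates 1 to 4 and ranged from 14.31 to 15.45 (median 14.86) on the 7 history arrays. Each history array was above the highest Control array, Control replicate 2, and no history array stood out from the other 6. The difference was 2.87 (SE 0.40, 95% interval 1.99 to 3.75), a 7.29-fold higher signal, with a limma adjusted p of 0.114. It was 2.84 in CoA and 2.90 in Corrected, and CoA minus Corrected was -0.06 (95% interval -1.19 to 1.07). Within the shared slide it was 3.15. INMT met the 2-fold criterion under all 26 alternatives run, with differences from 2.62 to 3.33.

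HGF, hepatocyte growth factor, a mesenchymal ligand of the receptor MET, gave 5.96, 6.32, 5.41 and 5.41 on the Control arrays and 6.43 to 8.19 (median 7.66) on the history arrays. Its difference was 1.68 (SE 0.34, limma adjusted p = 0.131), or 1.65 in CoA and 1.72 in Corrected, and all 3 of its probes were higher (1.47 to 1.96). The lowest history array, Corrected replicate 1, at 6.43, lay just above Control replicate 2 at 6.32. With normexp background correction the difference was below 2-fold at 0.93.

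NPY, the neuropeptide Y that sympathetic nerves release together with noradrenaline, was dim but detected in Control at 4.53, 4.62, 4.08 and 4.30 and ranged from 5.49 to 8.48 (median 6.10) in the history group. CoA arrays gave 5.49, 8.02, 6.44 and 8.48 and Corrected arrays 5.66, 6.10 and 5.87, so the 2 highest arrays were CoA replicates 4 and 2. The difference was 2.20 (SE 0.55, limma adjusted p = 0.161), with 2.72 in CoA and 1.49 in Corrected. CoA minus Corrected was 1.23 (unadjusted p = 0.0650 in limma), and the 5 probes of the gene lay between 2.20 and 3.01. With normexp background correction the NPY difference was 0.78. SCN9A, a sodium channel of peripheral neurons on the same list of nerve and glia genes, was 0.73 higher and did not meet the 2-fold criterion. The list had 4 tested members with positive differences (median 0.66), 1 of which met it.

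TNNC2, the calcium-binding troponin C of fast skeletal muscle, gave 10.02, 9.49, 8.17 and 8.12 in Control and 10.53 to 15.07 (median 11.45) in the history group. CoA replicate 2, at 15.07, stood far above the other 6 history arrays, the next of which was Corrected replicate 1 at 11.93. The difference was 2.88 (SE 0.75, limma adjusted p = 0.173), 3.12 in CoA and 2.56 in Corrected. The skeletal muscle list, which includes TNNC2, had a summed signal of 48656 on CoA replicate 2, against 2878 to 6735 on the other 6. Not all its members were high on that array, where MYH1 (4.45) and ATP2A1 (4.59) lay within the Control range. Without CoA replicate 2 and Corrected replicate 4 the TNNC2 difference was 2.22, and within the shared slide 1.53.

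STEAP1, a membrane protein of the metalloreductase family, ranged from 12.52 to 13.53 (median 13.23) in the history group against 12.13, 12.46, 11.42 and 10.94 in Control, a difference of 1.46 (SE 0.31) that was 1.32 in CoA and 1.63 in Corrected. Its lowest history array, CoA replicate 3, was just above Control replicate 2. FAS, the death receptor of the tumour necrosis factor receptor family, differed by 1.09 (SE 0.31), but its other probes ran from -0.24 to 0.26. All 6 FAS probes passed the detection filter, and 4 shared the sign. CDK14, a cyclin-dependent kinase, differed by 0.96 and LOC100356678, a locus with no assigned name, by 0.92. Of the 5 LOC100356678 probes, the others ran from -0.18 to 0.24 and did not pass the detection filter.

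KCNB2, a voltage-gated potassium channel subunit, gave 6.93, 6.42, 6.28 and 6.29 in Control and 7.11 to 8.22 (median 8.04) in the history group, with a difference of 1.40 (SE 0.26, limma adjusted p = 0.131) and all 5 probes between 1.26 and 1.49. It was 1.56 in CoA and 1.18 in Corrected. ATP1B1, the beta subunit of the sodium pump, was 1.13 higher (SE 0.34), with a lowest history array of 8.65 against a highest Control array of 8.64. CACNB1, a beta subunit of voltage-gated calcium channels, differed by 0.91 and did not reach 2-fold. Within the shared slide these differences were 0.56 for KCNB2, 0.73 for ATP1B1 and 0.63 for CACNB1.

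DKK1, a secreted inhibitor of Wnt signalling, had the smallest p for CoA vs Corrected among these 24 genes. Control arrays gave 5.23, 4.97, 4.998 and 5.07, CoA arrays 7.23, 5.83, 6.44 and 6.45 and Corrected arrays 5.57, 5.34 and 5.28. The 3 Corrected arrays compared were below all CoA arrays and just above Control, but Corrected replicate 3, which entered no fit, was at 6.95, above 3 of the 4 CoA arrays. The pooled difference was 0.95 (SE 0.36), made up of 1.42 in CoA and 0.33 in Corrected, and CoA minus Corrected was 1.09 (95% interval 0.40 to 1.78, unadjusted p = 0.00504 in limma), which did not pass adjustment.

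Among the genes lower in the history group, TACC3, a protein of the mitotic spindle, gave 11.02, 11.36, 12.24 and 12.29 in Control and 8.82 to 10.89 (median 10.21) in the history group. The highest history array, CoA replicate 3, lay just below Control replicate 1. The difference was -1.59 (SE 0.42, limma adjusted p = 0.174), -1.36 in CoA and -1.90 in Corrected, and it met the 2-fold criterion under all 26 alternatives run. DDIAS, a suppressor of apoptosis after DNA damage, differed by -1.67 (SE 0.42), with Corrected replicate 4 at 3.35 well below the other history arrays. Without that array the DDIAS difference was -1.37.

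SUCLA2, a subunit of the succinyl-CoA ligase of the citric acid cycle, gave 14.71, 13.76, 12.86 and 12.94 in Control and 11.35 to 12.49 (median 12.26) in the history group, a difference of -1.45 (SE 0.36, limma adjusted p = 0.157) that was -1.43 in CoA and -1.48 in Corrected. All 3 of its probes were lower. SLC25A20, the carrier that brings acylcarnitines into mitochondria, was -1.50 (SE 0.55), with a range of 5.25 to 8.75 (median 7.61) and CoA replicate 2 the lowest. Its highest history array, CoA replicate 3 at 8.75, lay just below Control replicate 2 at 8.78. VDAC3, a channel of the mitochondrial outer membrane, was -1.16 (SE 0.30), and GCSH, a protein of the mitochondrial glycine cleavage system, was -1.11 (SE 0.37) with all 11 of its probes lower. The VDAC3 difference did not reach 2-fold with scaling to the 75th percentile (-0.90) or within the shared slide (-0.39).

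SORL1, a receptor that sorts proteins between the Golgi apparatus and endosomes, had tight Control values of 8.63, 8.51, 8.62 and 8.78 and ranged from 6.39 to 8.20 (median 7.44) in the history group. The difference was -1.34 (SE 0.30, limma adjusted p = 0.131), with -1.32 in CoA and -1.36 in Corrected, and -1.72 within the shared slide. CYP7A1, the rate-limiting enzyme of bile acid synthesis from cholesterol, was -1.25 (SE 0.28), but 1 of its 4 probes had the other sign. FMO4, a flavin-containing monooxygenase, was -1.004 and PDZK1, a scaffold protein for membrane transporters, -0.90. SPRR3, a small proline-rich protein of squamous epithelium, was -1.40 and GHSR, the ghrelin receptor, -0.85, yet only 2 of 6 SPRR3 probes and 2 of 5 GHSR probes were lower.

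**Figure D2:**
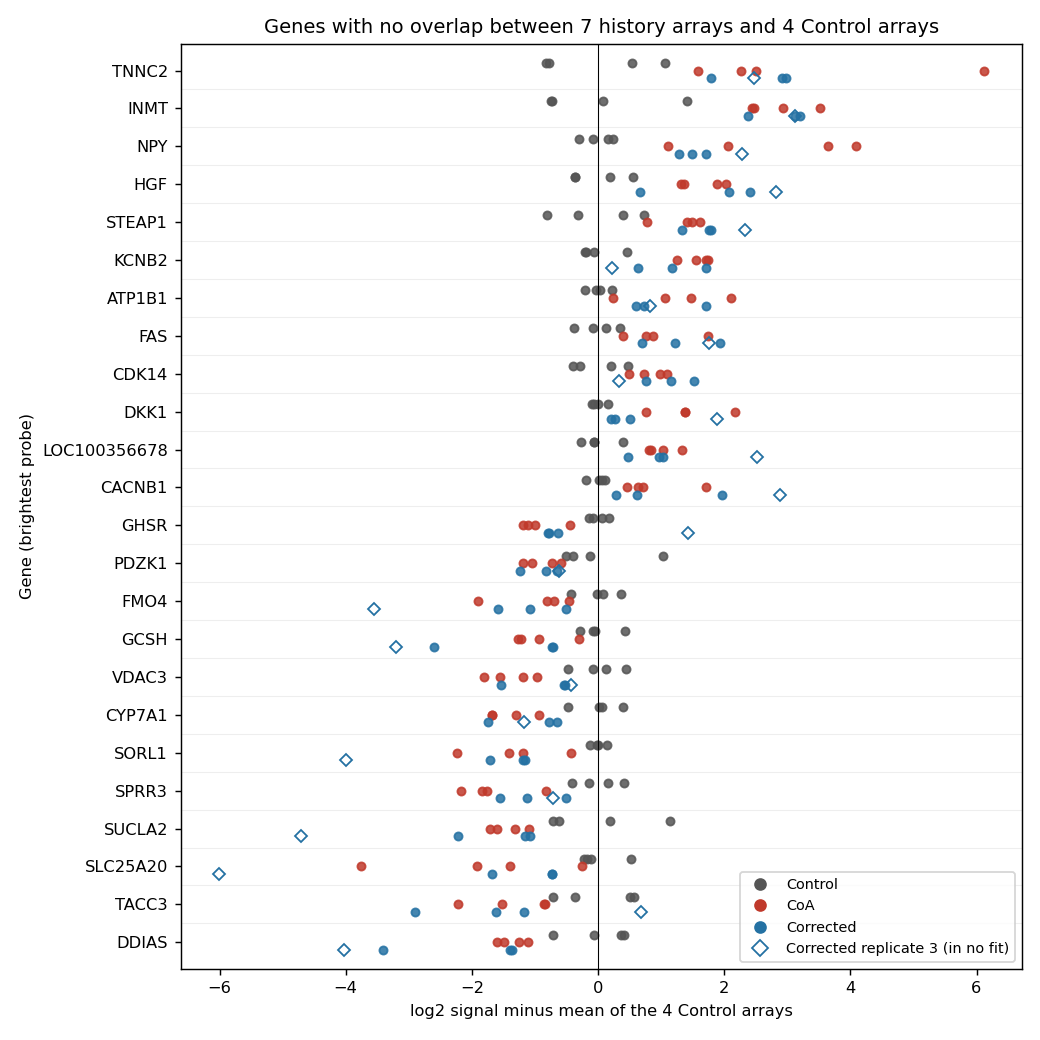
Log2 signal of each array minus the mean of the 4 Control arrays (horizontal axis) for the 24 genes without overlap, 12 higher and 12 lower (vertical axis), with 1 point per array. Grey is Control, red CoA and blue Corrected, and open diamonds are Corrected replicate 3, which entered no fit. For DKK1 the 3 filled Corrected points sit between Control and CoA and the diamond lies among the CoA arrays, while for INMT the CoA and Corrected arrays mix.

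Corrected replicate 3 entered no fit, though it was part of the normalization and of the detection filter. It lay outside the Control range for most genes, above it for 51.1% and below it for 30.7% of all 953, so the counts below are values and no check. For 10 of the 12 higher genes its signal was above all 4 Control arrays, among them INMT (15.04), HGF (8.60), NPY (6.67) and STEAP1 (14.06), and for CDK14 and KCNB2 it lay within the Control range. For 9 of the 12 lower genes it was below all Control arrays, for VDAC3 it lay within their range, and for TACC3 (12.40) and GHSR (6.98) it was above them. This array was the dimmest, and CDK14, DDIAS, FMO4, SLC25A20 and SORL1 were not detected on it.

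**Figure D3:**
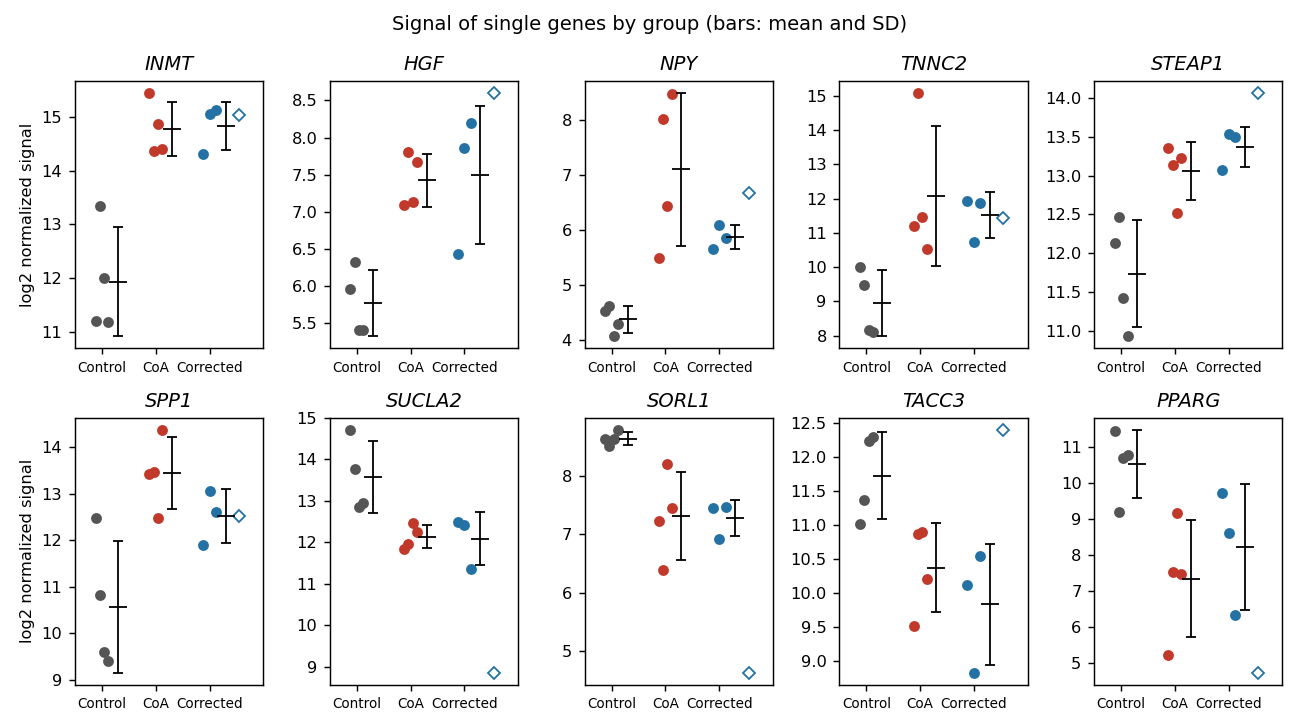
Log2 normalized signal (vertical axis) of 10 genes on each array by group (horizontal axis), with bars for the mean and SD of the arrays in the comparison. Open diamonds are Corrected replicate 3. The 7 history arrays lie above the 4 Control arrays for INMT, HGF, NPY, TNNC2 and STEAP1 and below them for SUCLA2, SORL1 and TACC3, while SPP1 and PPARG overlap.

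Genes were next grouped by lists of cell types and functions. The count of members past the 2-fold criterion is read against the 3.88% higher and 5.35% lower of all 953 genes, and the list's median difference against 0.09. A count of positive members is read against 537 positive genes among the 953, or 637 with scaling to the 75th percentile. In the calcium handling list 3 of 20 tested members met the criterion and all 3 were higher, 18 of 20 had a positive difference, and the median was 0.78. JPH1, which ties the sarcoplasmic reticulum to the cell membrane, was 1.53 higher (SE 0.51), 1.69 in CoA and 1.33 in Corrected, but of its 7 probes the other 6 ranged from 0.10 to 1.61 and 5 of them had an unadjusted p over 0.05. PLN, phospholamban, the inhibitor of the calcium pump of the sarcoplasmic reticulum, was 1.17 higher (SE 0.38) with all 7 probes between 0.92 and 1.18. CACNB2, another calcium channel beta subunit, was 1.17 higher (SE 0.48), with 6 probes from 0.59 to 1.17, and it lost the criterion under 11 of the 26 alternatives.

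CACNB1 and other members had an unadjusted p under 0.05 without reaching 2-fold, among them CAMK2D (a calmodulin-dependent kinase, 0.84) and FKBP1B (a partner of ryanodine receptors, 0.77). PLN gave 11.24, 11.90, 10.59 and 10.67 in Control and 11.14 to 13.41 (median 12.23) in the history group, so that 6 of 7 arrays were above Control and Corrected replicate 1 was within it. Without CoA replicate 2 and Corrected replicate 4 the list had 14 positive members, of which 1 met the criterion, and a median of 0.49. The limma adjusted p was 0.248 for PLN and 0.254 for JPH1.

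In the cardiac muscle list 2 of 7 tested members met the criterion, both higher, and all 7 were positive with a median of 0.94. They were PLN, which this list shares, and TNNC1, the troponin C of heart and slow muscle. TNNC1 gave 11.11, 10.26, 8.83 and 9.04 in Control, 12.32, 16.21, 12.39 and 11.56 in CoA and 12.84, 10.55 and 13.19 in Corrected, a difference of 2.92 (SE 0.87, limma adjusted p = 0.222). CoA replicate 2 was the highest array by far and Corrected replicate 2 lay within Control. Without CoA replicate 2 and Corrected replicate 4 the TNNC1 difference was 2.12, and within the shared slide 0.41. The summed signal of the cardiac list, which includes TNNC1, was 4465 to 11163 on Control arrays and 10698 to 129406 on history arrays. CoA replicate 2 was the highest, and the next history array, Corrected replicate 4, was at 23496.

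In the skeletal muscle list 1 of 11 tested members, TNNC2, met the criterion, and the median was 0.33 with all arrays and -0.22 without CoA replicate 2 and Corrected replicate 4. Its summed signal, TNNC2 included, was 1675 to 2666 in Control and 2878 to 48656 in the history group. CoA replicate 2 was again the highest. MYH1, the fast myosin heavy chain 2X, gave 5.13, 4.33, 4.82 and 4.52 in Control, 4.56, 4.45, 4.61 and 3.93 in CoA and 7.33, 9.96 and 5.28 in Corrected. Its differences were -0.31 in CoA and 2.82 in Corrected, and CoA minus Corrected was -3.14 (unadjusted p = 0.00262 in limma, not past adjustment), so that the pooled 1.03 (SE 0.98) describes neither group. ATP2A1, the calcium pump of fast skeletal muscle, was -0.80 in CoA and 1.82 in Corrected, with Corrected replicate 2 at 8.78 and Corrected replicate 4 at 4.04, and its pooled difference of 0.33 turned negative without Corrected replicate 2 (-0.30). The part of skeletal or cardiac tissue in the TNNC1 and TNNC2 differences was not tested.

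In the smooth muscle contraction list 0 of 10 tested members met the criterion, while all 10 differences were positive with a median of 0.44. CALD1, caldesmon, which binds actin and calmodulin, was 0.59 higher (SE 0.25, unadjusted p = 0.0381 in limma). MYH11, the smooth muscle myosin heavy chain, gave 14.55, 13.73, 12.46 and 12.60 in Control and 12.74 to 14.14 (median 13.86) in the history group, a difference of 0.38 (95% interval -0.51 to 1.27), with no history array outside the Control range. The summed signal of the list was lowest on CoA replicate 2 and Control replicates 3 and 4. With Corrected replicate 3 added, 6 of the 10 were positive and the MYH11 difference was -0.12.

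SPP1, osteopontin, a matrix phosphoprotein made by macrophages and by smooth muscle cells in the synthetic state, was on the lists of synthetic smooth muscle and of macrophage genes and was the only member of either past the criterion. It gave 12.48, 10.83, 9.60 and 9.40 in Control and 11.89 to 14.37 (median 13.06) in the history group, a difference of 2.47 (SE 0.59, limma adjusted p = 0.153) that was 2.86 in CoA and 1.95 in Corrected. Control replicate 1, at 12.48, overlapped the history arrays, of which 6 of 7 lay above it. The macrophage and granulocyte list had 1 of 10 tested members past the criterion and a median of 0.29, and its NADPH oxidase subunit CYBB was 0.66 higher. The synthetic smooth muscle list had 1 of 5 and a median of 0.32.

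Inflammatory genes met the criterion in 3 of 22 tested members, all higher. IL1A, interleukin 1 alpha, gave 5.05, 5.97, 4.61 and 3.89 in Control, 7.83, 5.90, 5.79 and 8.80 in CoA and 5.55, 6.81 and 6.84 in Corrected, a difference of 1.91 (SE 0.61) with CoA replicates 1 and 4 the highest. The 4 IL1A probes ran from 0.17 to 1.91, and only the printed one had an unadjusted limma p under 0.05. CXCL8, interleukin 8, was 1.47 higher (SE 0.58), but Control replicate 2 at 10.01 was above 6 of the 7 history arrays. The 7 CXCL8 probes ran from 0.57 to 1.55, most of them with an unadjusted limma p over 0.05. PTGS2, the inducible cyclooxygenase, was 1.02 higher (SE 0.36), but only 3 of the 7 history arrays lay above Control replicate 2 at 12.71. It lost the criterion under 13 of the 26 alternatives. CSF2, the granulocyte-macrophage colony-stimulating factor, had arrays that did not overlap and a difference of 0.84. The median of the list was 0.26, and without CoA replicate 2 and Corrected replicate 4 it was -0.01 with 1 member past the criterion. Within the shared slide it was -0.19, with 0 members past the criterion on the higher side and 3 on the lower.

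Among the growth factors and receptors, HGF was 1 of 8 tested members past the criterion (median 0.25). BMP2, a bone morphogenetic protein, was 0.86 higher with all 8 probes of that sign, though within the shared slide its difference was -0.07. GHR, the growth hormone receptor, was -0.74. In the vasoactive list 2 of 23 met the criterion on the higher side and 1 on the lower, with a median of 0.25. Besides NPY they were ADRA1A, an alpha-1 adrenergic receptor (1.03, SE 0.47), and PTGER3, the EP3 receptor of prostaglandin E2 (-1.78, SE 0.76). ADRA1A was at the edge of the criterion (unadjusted p = 0.0498 in limma), its 5 probes ran from -0.04 to 1.36, and it lost the criterion under 19 of the 26 alternatives, PTGER3 under 12. The NPY receptor NPY2R was 0.61 higher, with 2 of its 4 probes of that sign. TFPI, the tissue factor pathway inhibitor of endothelium, was 1.46 higher (SE 0.61) and was 1 of 8 endothelial members past the criterion (median 0.27), with CoA replicate 1 and Corrected replicate 4 the highest arrays.

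Of 11 tested members of the extracellular matrix list, 0 met the criterion, and the median was -0.07, but it was 0.56 with scaling to the 75th percentile. LUM, the collagen-binding proteoglycan lumican, was 0.79 higher and HAS2, a hyaluronan synthase, 0.70 higher, each with an unadjusted p under 0.05 in limma. Of 11 proteases and inhibitors 1 met the criterion on the higher side and 2 on the lower, with a median of 0.06. TIMP1, the metalloproteinase inhibitor, was 1.09 higher (SE 0.34), 1.12 in CoA and 1.05 in Corrected. TIMP4, an inhibitor of the same family, was -2.15 (SE 0.91) with -3.01 in CoA and -1.01 in Corrected. Only 3 of the 7 history arrays were below all Control arrays for TIMP4, and it lost the criterion under 11 of the 26 alternatives. The collagenase MMP1 was -1.24 (SE 0.37), with 2 of its 3 probes lower.

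In the white adipocyte list 2 of 6 tested members met the criterion, both lower, 5 of 6 had a negative difference and the median was -1.13. PPARG, the transcription factor of fat cell differentiation, gave 11.44, 9.19, 10.68 and 10.76 in Control and 5.22 to 9.72 (median 7.53) in the history group, a difference of -2.80 (SE 0.78, limma adjusted p = 0.195), -3.17 in CoA and -2.29 in Corrected. Only Corrected replicate 1 reached the Control range, and 6 of the 7 history arrays lay below it. ADIPOQ, the adipokine adiponectin, was -2.20 (SE 0.94) and was detected on 4 of the 7 history arrays. Summed over the list, the signal was 27318 to 59671 in Control and 14969 to 72002 in the history group, so the groups overlapped.

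Brown fat, T cells and red cells were each represented by few probes. UCP1, the uncoupling protein of brown fat, did not pass the detection filter. In the fit without the filter it was -2.83 (SE 0.53), with Control arrays at 6.19, 4.13, 7.09 and 7.33 and history arrays from 2.87 to 3.81 (median 3.49), of which 3 detected it. All 5 of its probes were lower, from -4.31 to -2.83, and the printed one had the smallest difference. CD247, the zeta chain of the T cell receptor complex, failed the filter likewise and was -2.30 (SE 0.55) without it, and CD5, a surface protein of T cells, passed it and was -1.76 (SE 0.52), 1 of 8 T cell members past the criterion. The T cell list had a median of -0.05, or 0.08 with scaling to the 75th percentile. HBA, the alpha chain of haemoglobin, gave 17.82, 16.84, 17.85 and 17.85 in Control, 11.41, 14.13, 15.72 and 15.62 in CoA and 17.61, 15.51 and 16.04 in Corrected, with CoA replicate 1 far below the rest. Its pooled difference was -2.44 (SE 0.89), made of -3.37 in CoA and -1.21 in Corrected, and CoA minus Corrected was -2.16 (unadjusted p = 0.0381 in limma). The part that fat, blood or lymphoid tissue on the rings had in the differences of other genes was not tested.

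**Figure D4:**
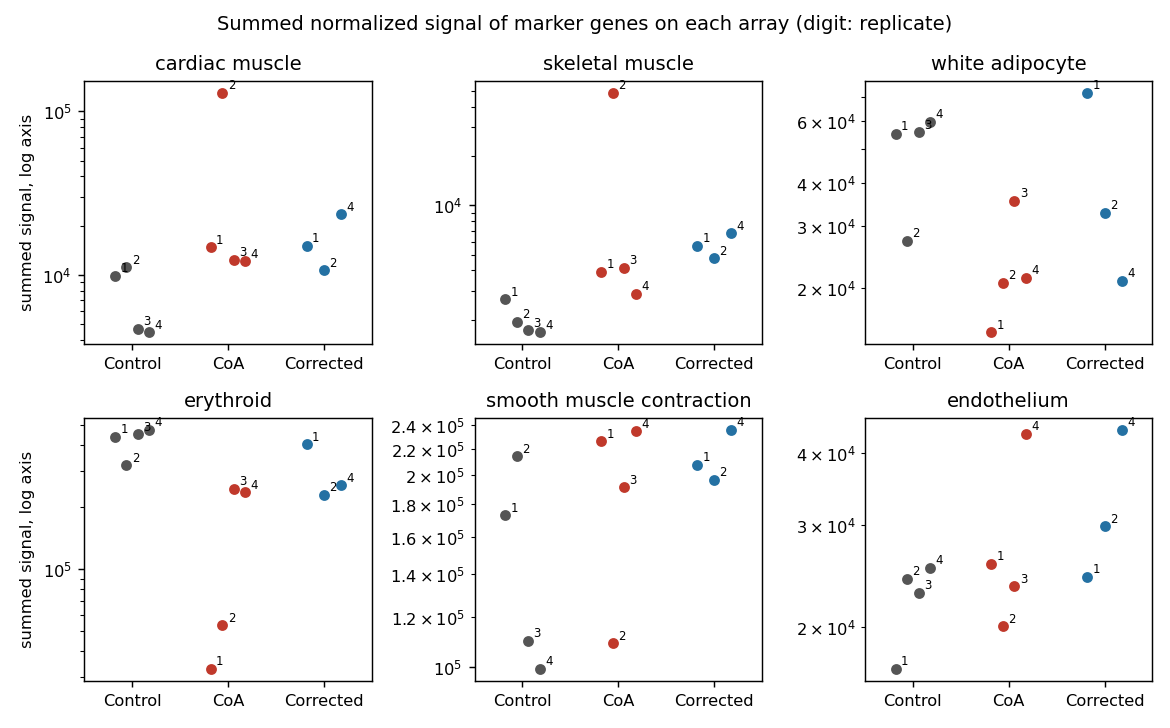
Summed normalized signal (vertical axis, log scale) of the named genes of 6 marker lists on each of the 11 arrays by group (horizontal axis), with the replicate number beside each point. CoA replicate 2 stands above all others for cardiac and skeletal muscle, whose sums include TNNC1 and TNNC2. CoA replicates 1 and 2 are the lowest for the erythroid genes.

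Enzymes of drug and xenobiotic metabolism, the list that holds INMT, had 1 of 30 tested members past the criterion on the higher side and 5 on the lower, with a median of 0.01 (-0.01 with normexp). The lower members were CBR1, a carbonyl reductase (-2.27, SE 0.65), the aldo-keto reductases AKR1C5 (-1.93, SE 0.70) and AKR1B1 (-1.04, SE 0.32), the epoxide hydrolase EPHX1 (-1.34, SE 0.59) and CYP7A1. CBR1 gave 9.34, 7.72, 8.52 and 9.13 in Control and 4.03 to 7.93 (median 6.53) in the history group, -2.41 in CoA and -2.08 in Corrected, with all 3 probes lower. AKR1B1, which turns glucose into sorbitol, was below all Control arrays on 6 of 7 history arrays. EPHX1 was low on Control replicate 2 (8.81) and its groups overlapped. Of the 14 other members with a positive difference, 2 had an unadjusted p under 0.05 in limma, of which CYP4B1 differed by 0.83 and CYP19A1, the aromatase that makes oestrogens, by 0.77.

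**Figure D5:**
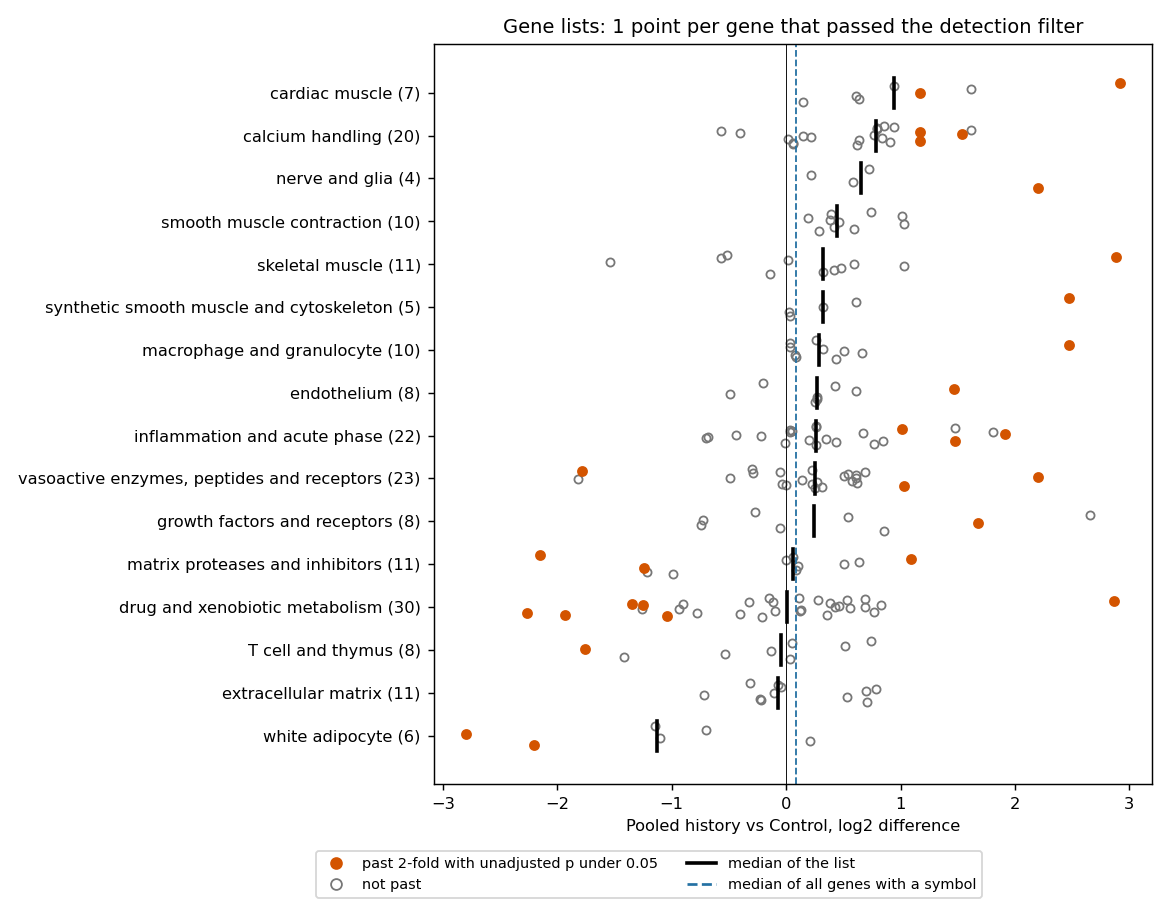
Pooled history vs Control log2 difference (horizontal axis) for each gene of 16 lists (vertical axis, number of tested genes in parentheses), with 1 point per gene, filled where it met the 2-fold criterion. Black ticks are list medians and the dashed line is the median of all 953 genes. All points of smooth muscle contraction lie right of 0, none of them filled, and 5 of the 6 white adipocyte points lie left of it.

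Genes that the study had singled out on these same samples are not independent evidence of a direction. Of 8 with a tested probe, 3 were higher (INMT, HGF and ATP1B1) and 1 lower (PPARG). The others, ATP2A1, MYH1, PRKCB and WARS1, did not meet the criterion. PRKCB, a protein kinase C, was -0.71 (95% interval -1.70 to 0.29), with 6 of 7 history arrays below Control and CoA replicate 2 above it, and WARS1, the tryptophanyl-tRNA synthetase, was -1.41 (95% interval -2.83 to 0.01). Outside that set, GAPDH, a glycolytic enzyme that the study used as its qRT-PCR reference, was -1.03 (95% interval -2.28 to 0.22). Its Control arrays ran from 11.19 to 14.31. Also outside it were 2 genes named through the brown adipocyte and B cell lists. DIO2, a deiodinase active in brown fat, was -0.85 (SE 0.29). CD80, a costimulatory protein on B cells and other antigen-presenting cells, was 0.54 (95% interval -0.16 to 1.24).

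Of all 43603 probes on the array, 3368 could be given a gene symbol. Most probes past the criterion likewise had none, 569 of the 666 higher and 990 of the 1114 lower. Those with the largest differences and no overlap measured 1 Ensembl transcript, ENSOCUT00000008957, on which 2 probes were 4.75 higher in the history group (SE 0.98 and 1.05, limma adjusted p = 0.131 for both). On the lower side the largest was ENSOCUT00000005139 at -4.07 (SE 0.84). The tables used here pair neither transcript with a gene.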

How the data were processed

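Total RNA from 1 thoracic aortic ring per rabbit was amplified, labelled with Cy3 and hybridized to 12 1-colour Agilent rabbit arrays. The deposited files hold the processed signal intensity of each spot, background-subtracted by the authors with Agilent Feature Extraction 11.0.1.1, and detection flags (other values) from the same software. They are scanner values, not yet normalized between arrays. A genome build was not given in the sources used here.

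Spots of 1 probe were averaged after control and outlier-flagged spots were removed. The log2 intensities were quantile normalized over 12 arrays with limma 3.58.1 in R 4.3.3. A probe was tested where it was detected (positive, significant and well above background) on at least 8 of 12 arrays, following the study's filter. The group of 7 was compared with the group of 4 by lmFit and eBayes, CoA and Corrected were separated in a fit of 3 group means, and p-values were adjusted by Benjamini-Hochberg over all 27283 probes. An exact two-sided permutation test was run for single genes. Of 43603 probes, 4511 carried a RefSeq accession and 3368 could be given a symbol from the RefSeq table of mOryCun1.1. The brightest probe represents a gene. Levels are not compared between genes, because probes differ in brightness.

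Named genes were the 12 with the largest differences each way among those with an unadjusted p under 0.05 and no overlap between groups, 11 genes the study discusses where they had a probe, and for each list the members with an unadjusted p under 0.05 or otherwise the one with the largest difference. The members of the groups, the lists and the tests were chosen with earlier results of these data known. The p-values measure the spread between these rabbits. No spot was saturated, and 8 to 22 spots per array carried an outlier flag. The fits were checked on simulated data. Alternatives were another scaling, background correction, detection filter, weighting, slide, replicate block and leaving out arrays. Figures were drawn with matplotlib 3.10.9. A list of cell division genes is not reported here. No sequence is shown, as none was given with the array.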

Additional observations from a re-analysis of the deposited data

Results flagged for a closer look

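In 207 groups of arrays of the 69 named genes, 15 had an array far from the rest by Dixon's test, which chance flags in about 1 of 20 groups. CoA replicate 2 was the high array of its group for TNNC2 (log2 signal 15.1), PLN (13.4), PRKCB (11.1), CD80 (5.12) and UCP1 (3.65). It was also the low array of the 7 for CALD1 (16.1). Control replicate 2 was the high array of Control for CACNB2 (9.32) and the low one for EPHX1 (8.81) and HBA (16.8), and Control replicate 1 was high for SLC25A20 (9.52). Corrected replicate 4 was the low array for DDIAS (3.35) and GCSH (7.53) and the high one for CXCL8 (11.8). Corrected replicate 1 was high for WARS1 (7.86) and CoA replicate 1 for TFPI (13.5). No cause was tested for any of these.

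MYH1 differed between CoA and Corrected, as all 4 CoA arrays were below the Control mean and the 3 Corrected arrays compared were above it. Corrected replicate 3, at 4.31, was below it too. CoA minus Corrected was -3.14 on the log2 scale, with an unadjusted limma p of 0.00262 that did not pass adjustment.

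Corrected replicate 3 entered no comparison and was above the highest Control array for 51.1% of all 953 genes. Among the 24 genes without overlap, its log2 signal was above the highest Control array for INMT (15.0), STEAP1 (14.1), FAS (12.2), TNNC2 (11.4), CACNB1 (9.45), ATP1B1 (9.24), HGF (8.60), DKK1 (6.95), NPY (6.67) and LOC100356678 (6.07).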

How the results depend on the processing

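The number of probes past the 2-fold criterion depended on the settings, while the direction of most named genes did not. Most of these genes were picked on the same arrays that the alternatives reuse, so a kept direction was in part fixed by the selection. Over 26 alternatives, 1520 of the named genes' values stayed on their side of the criterion, 216 lost it, 52 gained it and 6 changed sign. The changes of sign were MYH11 (-0.12 with Corrected replicate 3 added), ATP2A1 (-0.24 with array weights, -0.19 with slide as a random block, and a range of -0.30 to 0.60 when 1 array was left out, the lowest without Corrected replicate 2) and BMP2 (-0.069 with slide as a fixed factor and within the shared slide). Among the genes that met the criterion, ADRA1A (19 alternatives), EPHX1 (15), ADIPOQ (14) and FMO4 (14) lost it most often. The cause was not tested except where fewer probes or arrays entered.

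For the pooled comparison, for CoA and Corrected each against Control, and for CoA vs Corrected, in this order, the counts were 726, 934, 558 and 117 with normexp background correction, 2796, 3733, 2428 and 1461 without a detection filter, and 946, 1278, 786 and 317 for probes detected on all 12 arrays. Without the filter 1 probe passed adjustment in the pooled comparison and 1 in CoA vs Control. With Corrected replicate 3 added, the counts in the same order were 2174, 1740, 2851 and 1163. Array weights gave 4642 pooled past 2-fold and 11309 past adjustment at any fold, with weights of 5.70 and 4.76 on the nearly alike Control replicates 3 and 4. With those 2 as 1 sample the pooled count was 1240 and that of CoA vs Control 1566. Slide as a random block left 3 probes past adjustment, and slide as a fixed factor left 547 past 2-fold, against 960 within the shared slide. Without CoA replicate 2 and Corrected replicate 4, chosen after the data were seen, Corrected vs Control gave 957, and 1 probe passed adjustment in CoA vs Corrected.

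Leaving out 1 array at a time gave 1239 to 2849 pooled, with 0 to 266 past adjustment. The highest counts came without Control replicate 2, and the 266 too. CoA vs Control ranged from 1544 (without Control replicate 4) to 3533 (without Control replicate 2), with 0 to 21 past adjustment. Corrected vs Control ranged from 764 (without Corrected replicate 4) to 2404 (without Corrected replicate 1; 2363 without Corrected replicate 2), with 0 to 1, and CoA vs Corrected from 642 to 1779 (without Corrected replicate 2), with 0 to 1.

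Replicate numbers were not taken as pairs, and whether they pair the rabbits was not settled. Of 10 same-numbered pairs, 2 had a correlation of deviations over 0.1 (range -0.44 to 0.45). The highest was Control replicate 2 with Corrected replicate 2, which shared a slide. With the replicate block the counts were 1607 pooled, 2533, 1106 and 1158. Signal over background was lower on the history arrays, and what it limits was not tested against slide or the number of arrays.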
